A study of Mus musculus with 9 samples.

Results

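The 10 genes described here encode the transcription factors that act at the end of T cell receptor signaling: Nfatc1, Nfatc2 and Nfatc3 of the NFAT family, Nfkb1, Rela and Rel of the NF-kB family, and Jun, Junb, Fos and Fosb of AP-1. They were chosen by name, and all 10 were among the 32976 genes of the deposited tables. Their RNA was measured in tumor-infiltrating CD8+ T cells (TILs) that bind a tetramer of the GSW11 peptide, sorted from CT26.WT tumors of mice. CT26.WT is a BALB/c colorectal carcinoma line, and GSW11 is a peptide of the tumor presented to CD8+ T cells. All mice were labelled wildtype and had received PD-1 antibody (clone RMP1-14) on days 3, 6 and 9 after implantation, so all groups compared here share the treatment. TetHighProg are high avidity (tetramer-bright) cells from progressing tumors, TetLowReg are low avidity (tetramer-dim) cells from regressing tumors, and TetLowProg are low avidity cells from progressing tumors. Each group had 3 libraries, replicates 1, 2 and 5 of TetHighProg, 6, 7 and 8 of TetLowReg and 9, 10 and 12 of TetLowProg. The labels name no batch and do not say which TetHighProg and TetLowProg libraries came from the same tumor. Neither the age of the mice nor the number of cells per library is given in the labels. As these are bulk samples, fewer cells of a type and less RNA of a gene per cell cannot be told apart.

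Engagement of the T cell receptor feeds 3 signaling arms. Calcium entering the cell activates the phosphatase calcineurin, which removes phosphates from NFAT proteins and lets them enter the nucleus. Protein kinase C theta, acting through BCL10 and MALT1, activates the IkB kinases, which mark the inhibitor IkB for destruction and free the NF-kB dimers. Ras and the MAP kinases raise the transcription and activity of FOS and JUN proteins, which pair as AP-1. NFAT that binds DNA together with AP-1 drives activation genes such as Il2, while NFAT acting with little AP-1 is associated with T cell exhaustion and anergy. NFAT and RELA are controlled mainly at the protein level, by location and phosphorylation, whereas Fos, Fosb, Jun and Junb are immediate early genes whose RNA rises and decays quickly, also when tissue is dissociated into single cells.

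The libraries held 16405306 to 36429515 reads counted on genes, and they differed widely in how many genes those reads covered. TetHighProg 1 and 2, TetLowReg 6 and TetLowProg 10 had at least 10 counts on 599 to 1298 genes, TetHighProg 5 on 3181, and the other 4 libraries on 6443 to 8071. Mitochondrially encoded genes took 44.5% of gene counts in TetLowReg 7 and 14.2% in TetLowReg 8, against 1.36% to 6.07% in the other libraries, and are part of the total behind every CPM. T cell identity could be read in full only in part of the libraries. Of 14 T cell markers, 5 to 8 were found (10 counts or more) in the 4 sparse libraries and 12 to 14 in the rest, and Cd8a was at 0 in TetHighProg 1 and 2 and TetLowProg 10, where Cd8b1 had 75010 to 79539 counts. Of 8 B cell markers, 7 or 8 were found in TetLowReg 7 and 8 and TetLowProg 12, at a summed 2306 to 2780 CPM (reads per 1000000 gene counts). The same list summed to between 0.0395 and 6.43 CPM in the other libraries except TetLowProg 9, where it stood at 242 CPM, all of it Ighm, with Cd79a, Cd79b and Ms4a1 at 0. The part of these other cells, of mitochondrial reads and of sparse coverage in the differences described next was not tested.

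To show which DNA lies in front of the genes that carried most of the reads, the 250 bases upstream of the start site of Rel, Jun, Junb and Fos were read from the GRCm39 genome at the GENCODE M39 start of each gene's canonical transcript, 5′ to 3′ on the gene's own strand. The windows are chr11:23721265-23721514 (minus strand) for Rel, chr4:94940460-94940709 (minus) for Jun, chr8:85705348-85705597 (minus) for Junb and chr12:85520408-85520657 (plus) for Fos. Capitals mark a match, on either strand, to the CRE-like site TGACNTCA or to the consensus of kB, the site NF-kB dimers bind.
Rel: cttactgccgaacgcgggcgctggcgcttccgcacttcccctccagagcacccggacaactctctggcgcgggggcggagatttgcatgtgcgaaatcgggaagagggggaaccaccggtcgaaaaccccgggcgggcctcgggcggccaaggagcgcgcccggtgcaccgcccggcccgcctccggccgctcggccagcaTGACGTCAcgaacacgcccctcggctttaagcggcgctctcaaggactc
Jun: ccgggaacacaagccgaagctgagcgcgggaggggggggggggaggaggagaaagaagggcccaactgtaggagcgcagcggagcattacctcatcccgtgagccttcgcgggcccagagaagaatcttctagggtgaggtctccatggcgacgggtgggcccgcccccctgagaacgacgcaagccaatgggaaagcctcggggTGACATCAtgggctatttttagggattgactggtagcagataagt
Junb: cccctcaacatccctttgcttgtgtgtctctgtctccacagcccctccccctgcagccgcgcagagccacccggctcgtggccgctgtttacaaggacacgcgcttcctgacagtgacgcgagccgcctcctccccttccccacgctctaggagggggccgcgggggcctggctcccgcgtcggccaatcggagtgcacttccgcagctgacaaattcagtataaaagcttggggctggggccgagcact
Fos: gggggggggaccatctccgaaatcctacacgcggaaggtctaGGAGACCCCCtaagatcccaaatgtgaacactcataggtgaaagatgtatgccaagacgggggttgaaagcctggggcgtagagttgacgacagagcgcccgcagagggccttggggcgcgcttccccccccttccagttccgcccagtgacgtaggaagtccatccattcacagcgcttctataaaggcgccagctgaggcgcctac
The CRE-like site, which JUN and ATF or CREB proteins can bind, was found in 3 of the 10 promoters, beginning 49 bases before the start of Rel, 45 before Jun and 87 before Rela, and in 6.84% of the 21770 promoters of this length. A kB match began 208 bases before the start of Fos and 182 before Fosb, 2 of the 10, against 4.23% of all promoters. The AP-1 site TGANTCA was in none of the 10 windows and in 6.17% of all, and the CArG box, bound by serum response factor, in none and in 1.4%. The short NFAT core GGAAA was in 6 of the 10 and in 58% of all, and it is not marked in the sequences. Each printed window holds at most 1 marked site, so no marked sites overlap. A match is only a match of letters, and a window without one says nothing of sites elsewhere.

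Together the 10 genes took a small and very uneven share of each library. In TetHighProg 1, 2 and 5 they held 0.0134%, 3.95e-06% and 0.0839% of gene counts, and the value of TetHighProg 2 is 1 read. In TetLowReg 6, 7 and 8 the share was 0.363%, 0.0926% and 0.0642%, and in TetLowProg 9, 10 and 12 it was 0.747%, 0.000139% and 0.130%. TetLowReg 8 and TetLowProg 10 lay below TetHighProg 5, and the 3 groups overlapped. The mean share of gene counts came to 0.292% ± 0.399 for TetLowProg, 0.173% ± 0.165 for TetLowReg and 0.0325% ± 0.0451 for TetHighProg (SD, n = 3), so that each SD was near or above its mean. With mitochondrially encoded genes left out of the total the TetLowReg mean was 0.204%.

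Which family supplied these reads also differed. NF-kB genes, mostly Rel, made up 64.1% to 100% of the reads on the 10 genes in TetHighProg 1 and 5, TetLowReg 6, 7 and 8 and TetLowProg 12. AP-1 genes made up 90.4% in TetLowProg 9, against 34.1% in TetLowProg 12, 19.8% in TetHighProg 5 and at most 13.7% in the TetLowReg libraries. NFAT genes made up 35.9% in TetLowReg 6, nearly all from Nfatc3, and at most 6.43% in the other libraries. TetHighProg 2 and TetLowProg 10, with 1 and 35 reads on the 10 genes, are too thin to give a makeup.

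**Figure D1:**
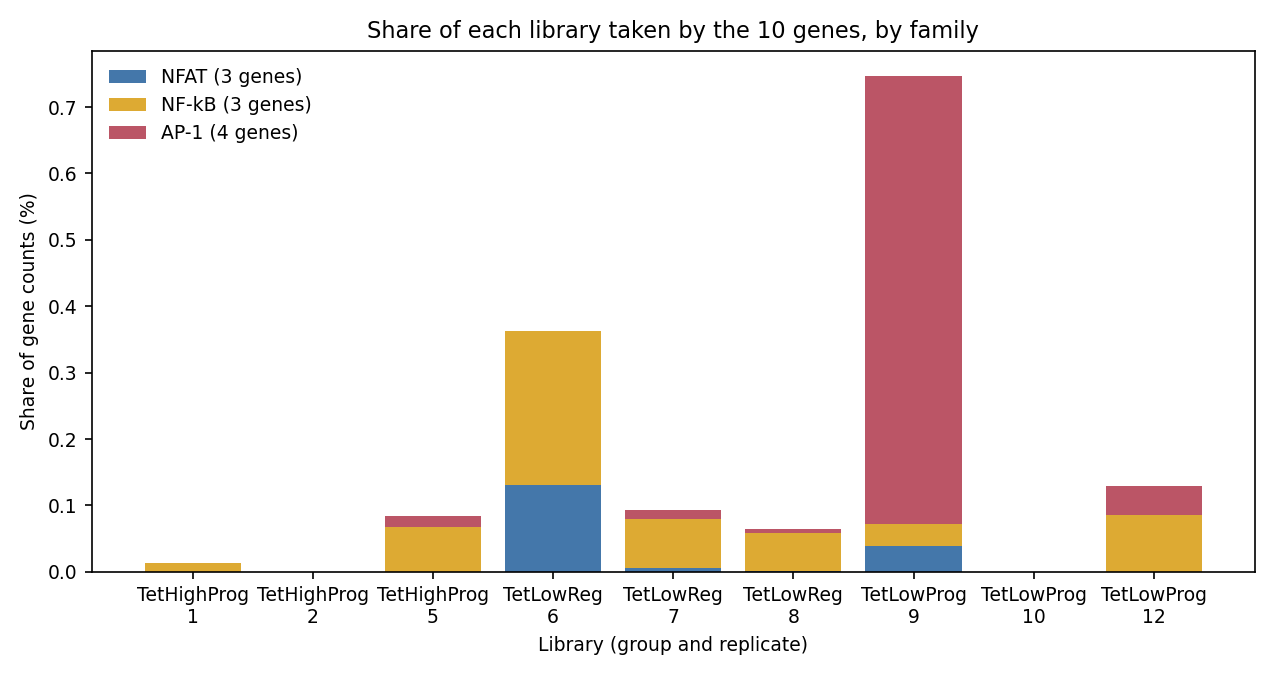
Bars give the share of gene counts (%, y axis from 0) on the 10 genes in each of the 9 libraries (x axis), stacked by family (NFAT 3 genes, NF-kB 3, AP-1 4). TetLowProg 9 reached 0.747% with AP-1 as 90.4% of it, TetLowReg 6 reached 0.363%, and TetHighProg 2 and TetLowProg 10 have no visible bar.

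The NFAT genes were each found in 2 to 4 of the 9 libraries. Nfatc1 (ENSMUSG00000033016, chromosome 18, 80649266 to 80756295, minus strand, GRCm39) encodes an NFAT protein whose expression NFAT itself induces on activation. It had 0, 0 and 1 counts in TetHighProg 1, 2 and 5, then 2, 5 and 191 in TetLowReg 6, 7 and 8, and 4283, 0 and 79 in TetLowProg 9, 10 and 12. The 3 TetLowReg libraries were all above the 3 TetHighProg libraries, but 2 of them by no more than 5 reads, and 93.9% of all Nfatc1 reads came from TetLowProg 9.

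Nfatc2 (ENSMUSG00000027544, chromosome 2, 168318330 to 168443693, minus) encodes NFAT1, which resting T cells already contain. It was at 0 in all 3 TetHighProg libraries, at 1, 3 and 48 counts in TetLowReg 6, 7 and 8, and at 6659, 0 and 0 in TetLowProg 9, 10 and 12. TetLowReg again lay above TetHighProg through counts of 1 and 3, and 99.2% of the reads were in TetLowProg 9.

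Nfatc3 (ENSMUSG00000031902, chromosome 8, 106785472 to 106857175, plus), whose product NFAT4 has a role in thymocyte development, had 0 counts in each TetHighProg library, 28769, 2163 and 0 in TetLowReg 6, 7 and 8, and 3393, 0 and 79 in TetLowProg 9, 10 and 12. TetLowReg 6 alone held 83.6% of its reads, at 1305 CPM against 93.4 CPM in the next library. Thus no TetHighProg library had more than a single read on Nfatc1, Nfatc2 and Nfatc3, while each of these genes was at 10 counts or more in 1 or 2 libraries of each low avidity group. Of all genes, 3.94%, 1.82% and 9.65% were at 10 counts or more in TetHighProg 1, 2 and 5, against 2.32% to 24.5% in the low avidity libraries. TetLowProg 10, at 3.48%, had 0 reads on these NFAT genes too. Esrp2, on the opposite strand, overlaps Nfatc3 and had at most 2 counts, and since the counts are not strand-specific, reads of an overlapping pair cannot be told apart.

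Among the NF-kB genes, Rel stood out as the gene found most widely. Rel (ENSMUSG00000020275, chromosome 11, 23686847 to 23721264, minus) encodes c-Rel, the lymphocyte NF-kB subunit tied to Il2 transcription and effector differentiation. Its level was 134, 0 and 503 CPM in TetHighProg 1, 2 and 5, 2328, 684 and 491 CPM in TetLowReg 6, 7 and 8, and 126, 0.0398 and 844 CPM in TetLowProg 9, 10 and 12. All 3 TetLowReg libraries had Rel, and the lowest of them fell just below TetHighProg 5. The mean was 1168 ± 1009 CPM in TetLowReg, 323 ± 455 in TetLowProg and 213 ± 261 in TetHighProg (SD, n = 3), in that order, with neighbors in the order closer than their spread. Unlike the AP-1 genes, Rel was not high in TetLowProg 9, and its largest library held 39.1% of its reads.

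Nfkb1 (ENSMUSG00000028163, chromosome 3, 135290264 to 135397742, minus) encodes p105, the precursor of the p50 subunit. It was at 0, 0 and 169 CPM in TetHighProg 1, 2 and 5, at 0, 39.8 and 74.4 CPM in TetLowReg 6, 7 and 8, and at 99.5, 0 and 4.83 CPM in TetLowProg 9, 10 and 12. Its highest library was thus a TetHighProg library, and the group means of 56.4 ± 97.7 (TetHighProg), 38.1 ± 37.2 (TetLowReg) and 34.8 ± 56.1 CPM (TetLowProg) lay within their spread.

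Rela (ENSMUSG00000024927, chromosome 19, 5687493 to 5698161, plus) encodes p65, the main activating partner of p50. It had 0, 0 and 3 counts in TetHighProg 1, 2 and 5, 0, 581 and 65 in TetLowReg 6, 7 and 8, and 3397, 0 and 16 in TetLowProg 9, 10 and 12. Of its reads 83.6% were in TetLowProg 9, where it stood at 93.5 CPM, and TetHighProg 5, which had 3839 counts of Nfkb1 and 11421 of Rel, had 3 of Rela.

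The 4 AP-1 genes each had their highest level in TetLowProg 9, with 74.1% to 99.4% of their reads there. Junb (ENSMUSG00000052837, chromosome 8, 85701113 to 85705359, minus) encodes a JUN protein that pairs with BATF and FOS proteins in activated T cells. Its counts were 0, 1 and 544 in TetHighProg 1, 2 and 5, 0, 312 and 8 in TetLowReg 6, 7 and 8, and 160370, 0 and 151 in TetLowProg 9, 10 and 12. The level of 4413 CPM in TetLowProg 9 compared with 24.0 CPM in the next library, TetHighProg 5, and 99.4% of Junb reads were in this 1 library.

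Fos (ENSMUSG00000021250, chromosome 12, 85520658 to 85524047, plus) encodes c-Fos, the partner that gives AP-1 its strong DNA binding. It stood at 0, 0 and 143 CPM in TetHighProg 1, 2 and 5, 0.726, 19.2 and 55.9 CPM in TetLowReg 6, 7 and 8, and 1349, 1.35 and 173 CPM in TetLowProg 9, 10 and 12. Fos and Rel were found in 7 of the 9 libraries each, the widest of the 10 genes, and Fos was found in all 6 low avidity libraries, at 16 and 34 counts in TetLowReg 6 and TetLowProg 10.

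Jun (ENSMUSG00000052684, chromosome 4, 94937271 to 94940459, minus), which encodes c-Jun, had 0, 0 and 2 counts in TetHighProg 1, 2 and 5, 0, 3556 and 24 in TetLowReg 6, 7 and 8, and 33947, 0 and 8309 in TetLowProg 9, 10 and 12. The libraries with the most Jun, 934 CPM in TetLowProg 9 and 264 CPM in TetLowProg 12, were of the same group, whose remaining library had none. TetHighProg 5 had Fos and Junb reads with almost no Jun.

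Fosb (ENSMUSG00000003545, chromosome 7, 19036621 to 19043976, minus), a close relative of Fos, was at 0 in all TetHighProg libraries, at 0, 47 and 2 counts in TetLowReg 6, 7 and 8, and at 2318, 0 and 18 in TetLowProg 9, 10 and 12. TetLowProg 9 held 97.2% of its reads. Antisense genes overlap Jun (Junos, at most 2 counts) and Junb (Prdx2, at most 1 count).

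**Figure D2:**
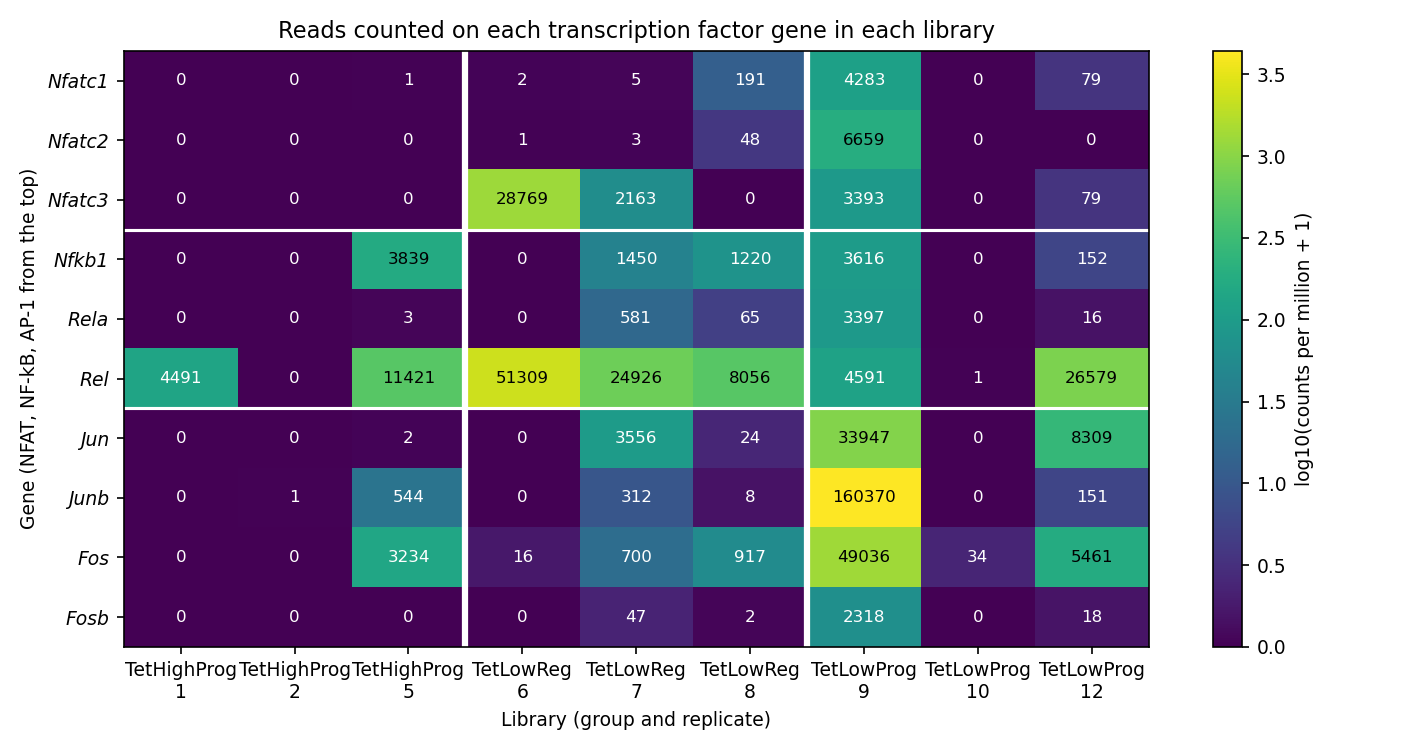
Each cell gives the reads counted on a gene (rows, by family) in a library (columns, by group), colored by log10(CPM + 1). The TetLowProg 9 column is filled for all 10 genes with Junb at 160370 counts, the Rel row is filled in 7 of 9 libraries, and TetHighProg 2 and TetLowProg 10 are nearly empty.

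Divided by the length of each gene's merged exons, so that genes can be compared, the order within a library changed with the library. In TetLowProg 9 the order was Junb at 1853, Fos at 572 and Jun at 293 CPM per kb, followed by Rela at 28.6, Nfatc2 at 17.1, Rel at 16.3 and the other 4 genes at 6.23 to 15.4. Rel led in every other library in which it was found, among them TetLowReg 6 (300.0 CPM per kb, with Nfatc3 next at 87.1) and TetLowProg 12 (109 CPM per kb, with Jun next at 82.7). Of the 10 genes, 7 had their highest CPM in TetLowProg 9, 2 in TetLowReg 6 and 1 in TetHighProg 5. TetLowProg 9 also held the highest CPM for 31.9% of the 5813 genes tested, TetLowReg 6, 7 and 8 for 4.97%, 6.95% and 11.2%, TetLowProg 10 and 12 for 6.07% and 16.4%, and TetHighProg 1, 2 and 5 for 6.47%, 3.87% and 12.2%.

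The pattern across the 9 libraries was described with Pearson's r of log2(CPM + 1), with no test, since the libraries share depth and coverage differences. The closest pairs were Nfatc1 with Nfatc2 (r = 0.94), Nfatc2 with Fosb (0.94) and Junb with Fosb (0.93). Without TetLowProg 9 (n = 8) the closest pairs were Jun with Fosb (0.90), Nfatc1 with Nfatc2 (0.88) and Nfkb1 with Fos (0.83), while Nfatc2 with Fosb went to -0.036 and Junb with Fosb to 0.50. Among 5778 other genes, those most like Rel were Ube2n (0.98), Chd2 (0.97) and Arf6 (0.96). Topors (0.98), Rnf19b (0.98) and the T cell receptor segment Traj50 (0.96) were most like Nfatc3, and Rps29, Traf3ip3 and Rpl18 (0.99 each) most like Fos, 2 of these being ribosomal protein genes.

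Between low avidity cells of regressing tumors and high avidity cells of progressing tumors, the comparison that sets the responding tumors' cells against the bright cells of non-responders, no gene of the 10 was called. A call needed a log2 fold change above 2 in size and a p under 0.05 after Benjamini-Hochberg adjustment in edgeR's quasi-likelihood test over the whole table. Of the 10 genes, 9 passed edgeR's filter on low counts and Nfatc2 did not. The share called of all 5813 genes was 0% as well, so the count of 0 is the background itself. The fitted log2 fold change was above 0 for 7 of the 9 tested genes, against 72.7% of all genes, with a median of 3.60 against 3.52 over all genes. Which of the 2 medians was higher depended on the fit. With library size in place of TMM they were 2.90 and 3.05, without TetHighProg 1 3.58 and 4.10, and without TetLowProg 9 3.49 and 3.94. They were 8.06 and 3.43 with DESeq2 at default size factors, 4.10 and 1.58 with poscounts size factors and 7.90 and 6.34 with limma-voom.

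The NFAT genes had at most 1 read in TetHighProg to be set against. Nfatc3 was at least 11212-fold higher in TetLowReg, taking 3 counts as the most that 0 reads over a group allows, but TetLowReg 8 was at 0 too and the groups overlapped. Without TetLowReg 6 this limit fell to 1111-fold and the fitted value to 9.53. Its fitted log2 fold change was 12.46 with an SE of 5.02 (unadjusted p = 0.0131, edgeR adjusted p = 0.233), and it was the only one of the 9 with an unadjusted p under 0.05, which 19% of all genes had in that direction and 0.516% in the other. Nfatc1 was 215-fold higher by pooled counts. Its 95% counting interval of 38.2 to 8547 rests on 1 read in TetHighProg and leaves out the spread between libraries. The fitted log2 fold change of Nfatc1 went from 5.81 (SE 3.89) to 1.49 without TetLowReg 8. Nfatc2, untested, was at least 18.8-fold higher by pooled counts, and without TetLowReg 8 the pooled ratio of Nfatc1 was 9.75 and the limit of Nfatc2 1.86. Nfatc1 and Nfatc2 were the 2 of the 10 whose TetLowReg libraries all lay above all TetHighProg libraries, as did 2.28% of the genes with a count.

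No NF-kB or AP-1 gene passed the test. Rel was 5.76-fold higher in TetLowReg by pooled counts, 3.19-fold without TetLowReg 6 and 14.7-fold without TetHighProg 5, with a fitted log2 fold change of 2.74 and an SE of 3.11 (edgeR adjusted p = 0.632). Jun differed by 9.21 on the log2 scale with an SE of 5.09 (edgeR adjusted p = 0.237) and Rela by 6.64 with an SE of 4.51 (edgeR adjusted p = 0.323), and without TetLowReg 7 Jun was at 3.15 and Rela at 4.34. Nfkb1 (0.15), Junb (-0.37) and Fos (-0.25) had fitted differences near 0, each with an SE above 3, and TetHighProg 5 had reads on all 3 of them. Without TetHighProg 5, Nfkb1 was at 9.52, Fos at 8.88 and Junb at 5.60 on the log2 scale and the median over the same 9 genes was 7.25. Without TetLowReg 6 Fos was at 0.34 and Junb at 0.21, and without TetLowReg 8 Junb was at 0.17, so the directions of these genes turned with single libraries of either group. Other tests called some of the genes higher, though not each gave an adjusted p for all 10. DESeq2 with default size factors called Jun and Nfatc3 of 4 genes with an adjusted p, where it called 34.1% of all genes higher. DESeq2 with poscounts size factors called Jun of 5 (25.8%), and on these 2 groups Nfatc3 of 4 (33.6%). Limma-voom with sample quality weights called Nfkb1, Jun, Rel, Fos and Rela of 9 (41.3%). A fit of edgeR on these 2 groups tested only Nfkb1, Rel, Junb and Fos and called none of the 4 (0.0791%), so it gives no value for Jun, Nfatc3 or Rela.

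Low avidity cells of progressing tumors were set against high avidity cells of the same kind of tumor, which compares tetramer binding with tumor outcome held. Again 0 of the 9 tested genes were called by edgeR, as were 0% of all genes. The fitted log2 fold change was above 0 for 8 of the 9, against 73.5% of all genes, and the median was 7.52 against 4.27 over all genes. Nfatc3 at 8.16 with an SE of 3.87 (unadjusted p = 0.0348), Jun at 11.51 with an SE of 5.68 (unadjusted p = 0.0426) and Fosb at 7.58 with an SE of 3.65 (unadjusted p = 0.0378) were the 3 with an unadjusted p under 0.05, where 24.8% of all genes had one in that direction and 0.55% in the other, and each had an edgeR adjusted p of 0.193.

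By pooled counts Jun was 18501-fold higher in TetLowProg, with a 95% counting interval of 5121 to 152776 that leaves out the spread between libraries. Junb was 258-fold higher and Fos 14.8-fold higher, and Nfatc3, Nfatc2 and Fosb were at least 1013-fold, 1944-fold and 682-fold higher. Without TetLowProg 9 the pooled ratio of Jun was 5972 and that of Fos 2.44, and Junb had a ratio of 0.398. Nfatc2 then had no reads in either group, and the limits for Nfatc3 and Fosb fell to 37.9 and 8.62. Without TetHighProg 5, in contrast, Fos was at least 11482-fold and Junb 101395-fold higher, the latter against 1 read, and the fitted value of Fos went from 3.10 to 12.07. The groups overlapped for all 10 genes, while 3.49% of the genes with a count had all TetLowProg libraries above all of TetHighProg. Without TetLowProg 9 the median fitted log2 fold change fell from 7.52 to 1.53, with all genes at 1.73, Junb turned to -1.45 and Jun stood at 10.32 against 11.51. Rel differed by 0.68 with an SE of 2.92 (edgeR adjusted p = 0.950) and Nfkb1 by -1.06 with an SE of 4.36. DESeq2 with default size factors called Jun and Nfatc3 higher of 4 genes with an adjusted p (42.7% of all genes), with poscounts size factors Jun of 5 (23.2%) and on these 2 groups Jun of 3 (45.7%). Limma-voom called Jun, Junb, Nfatc3, Fos and Nfatc1 of 9 (49.6%). On the 2 groups edgeR again tested only Nfkb1, Rel, Junb and Fos and called none of the 4 (0.0357%).

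The last comparison, between low avidity cells of progressing and of regressing tumors, holds tetramer binding alike and varies the outcome. Again edgeR called 0 of the 9 and 0% of all genes, no gene of the 10 had an unadjusted p under 0.05 (0.43% of all genes did in the higher direction and 0.499% in the lower), and the other fits called none of those they tested. The 3 DESeq2 fits gave an adjusted p for only 4, 5 and 4 of the 10 genes, with Nfatc2, Junb and Fosb in none of them, and limma-voom and edgeR on the 2 groups for 9. Those fits called 1.52%, 0.261% and 0.189% of genes higher with DESeq2 at default size factors, poscounts size factors and on the 2 groups, and 0% with limma-voom and with edgeR on the 2 groups. Fitted values were above 0 in TetLowProg for 6 of the 9, against 55.5% of all genes. These were the 4 AP-1 genes, with log2 fold changes of 7.48 (SE 4.35) for Junb, 3.98 for Fosb, 3.35 for Fos and 2.30 for Jun, and also Nfatc1 (2.44) and Rela (0.87). Nfatc3 (-4.30), Rel (-2.06) and Nfkb1 (-1.21) had values below 0. All 10 genes overlapped between the groups, against 1.06% of the genes with a count that lay wholly higher in TetLowProg, the smallest unadjusted p was 0.0860 for Junb, and the edgeR adjusted p was 0.99997 for each of the 9. Without TetLowProg 9, Junb was at -1.09, Fosb at -1.27, Nfatc1 at -1.68 and Rela at -5.02, and the median over the same 9 genes went from 2.30 to -1.55, so the direction of 4 of these 6 genes rests on this library. The 3 comparisons share libraries in pairs and are not independent.

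**Figure D3:**
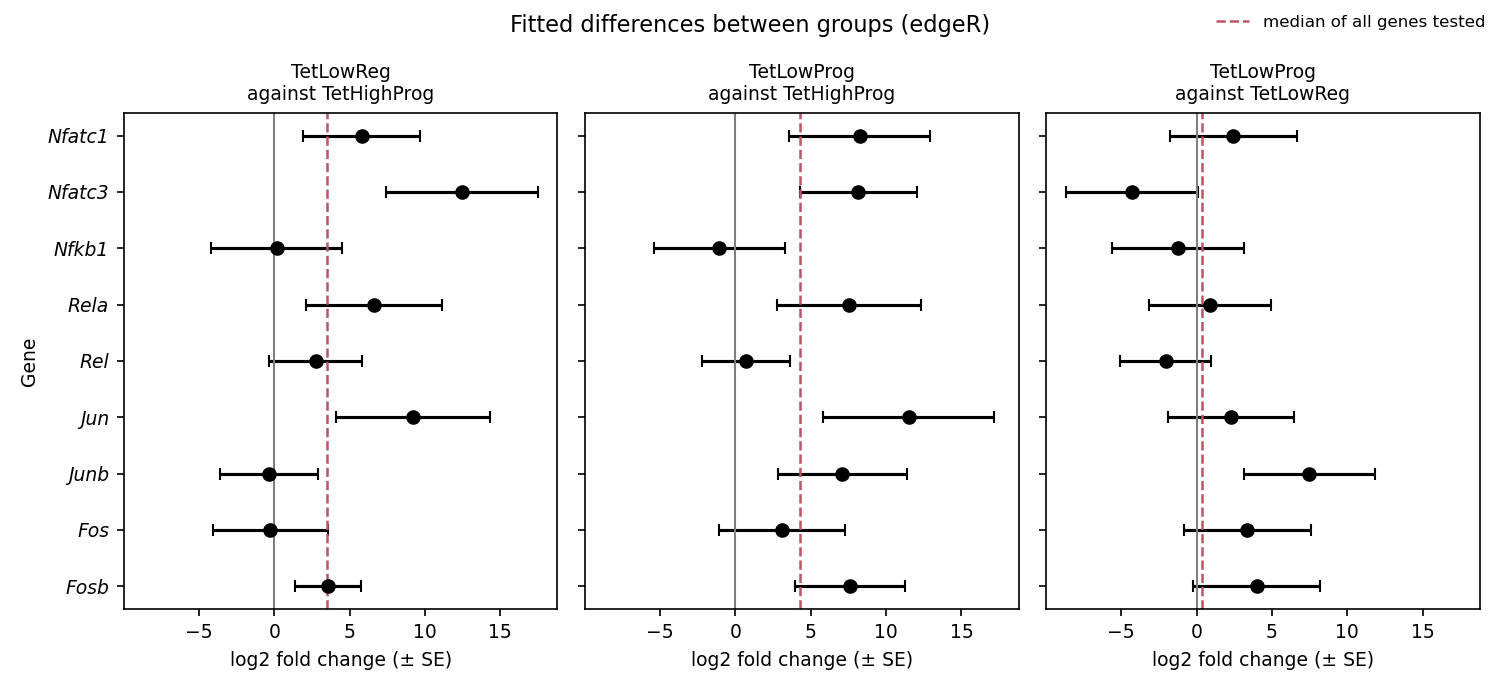
Points are edgeR's fitted log2 fold changes (x axis) for the 9 tested genes (y axis) in each comparison, and the dashed line is the median over the 5813 genes tested. Bars are the SE, worked back from the fold change and the F value of its test. In the rightmost panel the bars of all genes but Junb reach 0, and in the first comparison the genes spread on both sides of the median of 3.52.

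The other parts of the same pathways were read from lists chosen with earlier results of these data known. Among 11 other subunits of the 3 families, Jund, a JUN protein with steadier expression, was found in 7 libraries, Nfat5, the NFAT relative that responds to osmotic stress rather than calcineurin, in 6, and Fosl2 in 5. The level of Jund, 1.87 ± 2.23 CPM in TetHighProg, reached 16.2 ± 19.2 in TetLowReg and 55.3 ± 58.3 in TetLowProg, and Nfat5 at 111 ± 102, 21.6 ± 35.4 and 42.9 ± 48.5 in the same order (SD, n = 3). Batf, an AP-1 partner in effector and exhausted T cells, had 1007 counts in TetHighProg 5 and 1709 in TetLowProg 9 and at most 1 in the other 7 libraries. Of the 5 subunits tested, 0 were called in each comparison.

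Some genes of the calcium arm were found in more libraries than Nfatc1, Nfatc2 and Nfatc3. Calm2, which encodes calmodulin, and Gsk3b, the kinase that sends NFAT out of the nucleus, were found in all 9 libraries. Calm2 had a mean of 6535 ± 1738 CPM in TetHighProg, 4426 ± 683 in TetLowReg and 2795 ± 2393 in TetLowProg, and no comparison of it passed the test (edgeR adjusted p from 0.657 to 0.99997). The calcineurin subunit genes Ppp3ca, Ppp3cb, Ppp3cc and Ppp3r1 were at 0 in TetHighProg 1 and 2, as Nfatc1, Nfatc2 and Nfatc3 were. In TetLowReg 6 and TetLowProg 10, also sparse, Ppp3ca had 73 and 83 counts and Ppp3cb, Ppp3cc and Ppp3r1 were at 0. In TetHighProg 5 Ppp3cc had 11211 counts, Ppp3ca 1494, Ppp3r1 1 and Ppp3cb 0. The median log2 fold change of the 11 tested genes of this arm was 0.31 in TetLowReg and 0.88 in TetLowProg against TetHighProg, below the medians of all genes of 3.52 and 4.27.

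The IKK and IkB arm followed the richer libraries. Of its 23 genes 0 to 5 were found in the 4 sparse libraries, 5 in TetHighProg 5, and 15 to 20 in the other 4. Nfkbia, which encodes the NF-kB inhibitor that NF-kB itself induces, was at 636 ± 551 CPM in TetHighProg, 164 ± 147 in TetLowReg and 1478 ± 709 in TetLowProg, and was high in TetLowProg 10 (43946 counts), where the 3 NF-kB genes had 1 count in all. Tnfaip3, encoding the feedback inhibitor A20, had 88673 counts in TetLowProg 9 and at most 12081 elsewhere. Bcl10 and Malt1 were at 0 in every TetHighProg library, in TetLowReg 6 and in TetLowProg 10. In the first comparison 18 of 19 tested genes had a log2 fold change above 0 (72.7% of all genes) with a median of 5.77 (3.52 over all genes), in the second 19 of 19 (73.5%) with a median of 8.48 (4.27), and 0 were called in each.

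Ras and MAP kinase genes showed the same dependence on library, with 1 to 2 of 18 found in the 4 sparse libraries and 12 to 17 in the 4 richest. Nras was the most widely found, in 7 libraries, and Dusp5, a phosphatase that ERK signaling induces, had 66264 counts in TetHighProg 2 and 43916 in TetLowProg 9. Of the 16 genes tested, 12 had a log2 fold change above 0 in each low avidity group against TetHighProg, near the 72.7% and 73.5% of all genes, and 0 were called. The medians were 5.64 and 6.62 against 3.52 and 4.27 over all genes.

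Of 22 target genes of the 3 families 10 were tested, and in TetLowReg against TetHighProg 5 of them had a log2 fold change above 0 and 5 below. The median over the 10 was -0.35 in this comparison, where all genes had 3.52, then 1.41 in TetLowProg against TetHighProg and 0.97 in TetLowProg against TetLowReg, with 0 called in each. Nr4a2, an orphan nuclear receptor gene downstream of NFAT, was at 835 ± 1083 CPM in TetHighProg, 139 ± 129 in TetLowReg and 189 ± 85.6 in TetLowProg. Tox, the NFAT-driven factor of exhausted T cells, was at 311 ± 177 CPM in TetHighProg, 12.6 ± 20.5 in TetLowReg and 694 ± 1053 in TetLowProg. It had 13349, 2704 and 9663 counts in TetHighProg 1, 2 and 5, and 0, 54 and 594 in TetLowReg 6, 7 and 8. In TetLowProg 9, 10 and 12 Tox had 1491, 47984 and 4129 counts. No TetHighProg library had more than a single read of Nfatc1, Nfatc2 and Nfatc3 together, and TetLowProg 10 had 0. Il2 reached 34 counts in TetLowProg 9 and at most 1 elsewhere. Ifng had 11244 counts and Tnf 3827 in TetLowProg 9, against 2349 and 127 in TetLowReg 7 and at most 1 and 0 in the other libraries. Of the 22 targets, 12 had their highest CPM in TetLowProg 9.

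Immediate early genes that also rise on tissue dissociation were listed because Fos, Fosb, Jun and Junb belong among them. Of the 17 measured, all 17 were found in TetLowProg 9, 15 in TetLowReg 7, 13 in TetLowProg 12, 11 in TetHighProg 5, 9 in TetLowReg 8 and 1 to 4 in the 4 sparse libraries, and 13 had their highest CPM in TetLowProg 9. In TetLowProg 9 Ier2 had 50021 counts, Dusp1 52513 and Zfp36 22818, beside 160370 for Junb and 49036 for Fos. Ier2 had at most 2693 counts in any other library. Hspa1a and Hspa1b, heat shock genes, had 4457 and 277 counts there, against 507 and 8 in TetLowReg 7 and 0 in the other libraries. Btg1 was high in all 9 libraries, and Btg2 and Mcl1 had 90466 and 40010 counts in TetLowProg 10, where Fos had 34 and the other AP-1 genes had none. Of the 13 tested genes of this list all 13 were above 0 in TetLowProg against TetLowReg (55.5% of all genes), with a median of 1.78 (0.35 over all genes) and 0 called. Against TetHighProg 9 of the 13 were above 0 in TetLowReg, with a median of 0.79 (3.52), and 12 of the 13 in TetLowProg, with a median of 2.44 (4.27). The part of sorting and dissociation in the AP-1 levels was not tested.

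**Figure D4:**
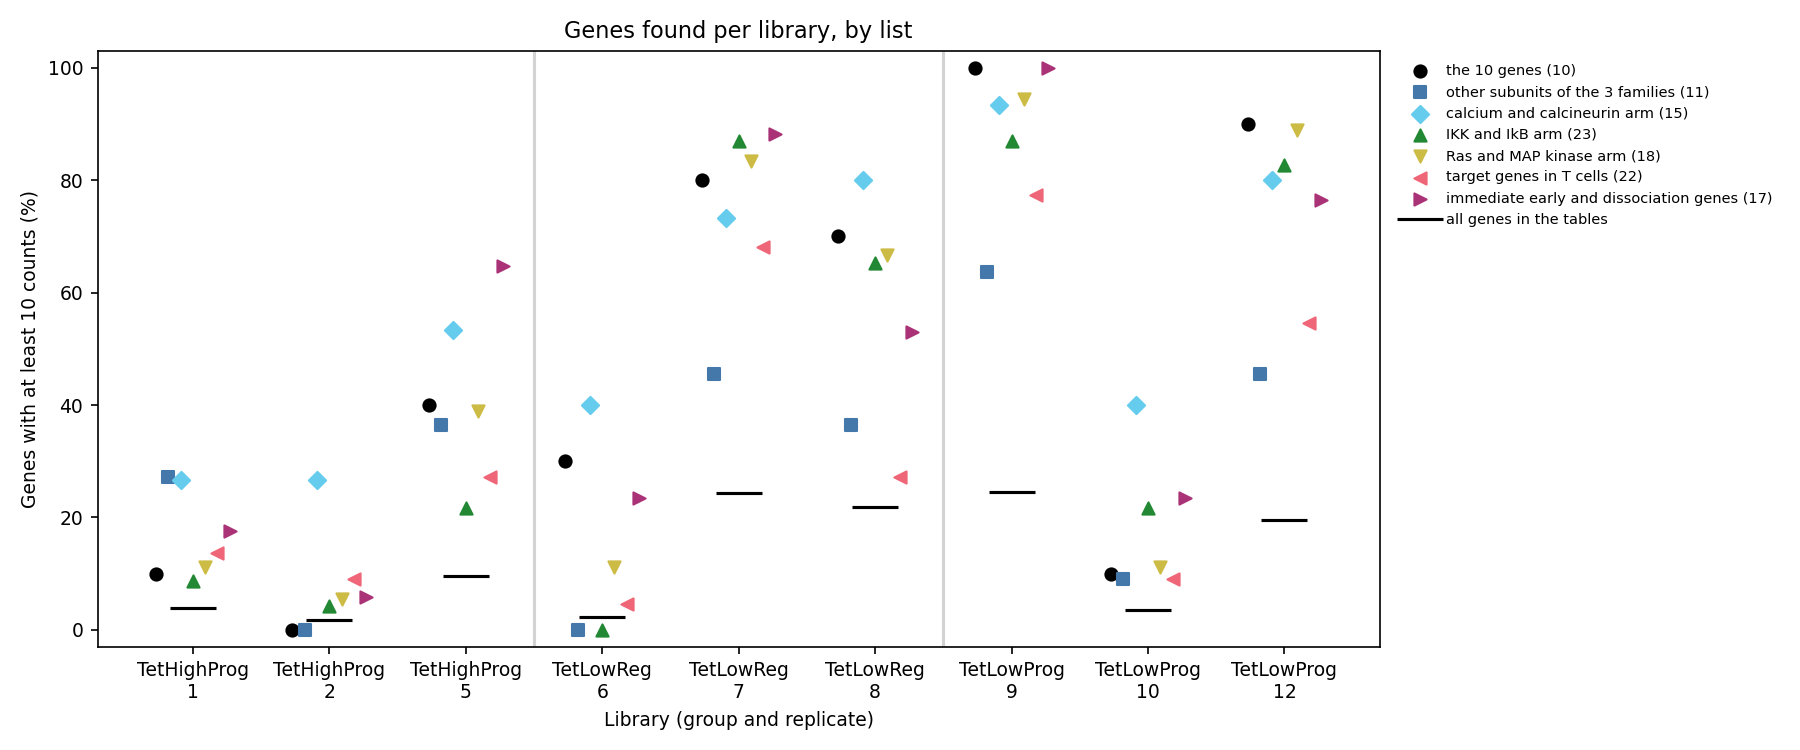
Symbols give, for each library (x axis), the percent of a list's genes with at least 10 counts (y axis), with the list size in the key, and black lines the percent of all 32976 genes. In TetHighProg 2 none of the 10 genes was found and in TetLowProg 9 all were, and the IKK and MAP kinase symbols lie higher in TetLowReg 7 and 8 and TetLowProg 9 and 12 than in the other 5 libraries.

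Other cell types were read beside the levels of the 10 genes. B cells and myeloid cells also express Rel, Jun and Fos, and the B cell markers stood high in TetLowReg 7 and 8 and TetLowProg 12, where Rel was at 684, 491 and 844 CPM. TetLowReg 6, with the highest Rel and Nfatc3, had 2 reads on the 8 B cell markers. In TetLowProg 9, with the highest AP-1 levels, 1 of the 8 B cell markers was found, Ighm at 8777 counts (242 CPM), and the other 7 were at 0. Of 13 macrophage and dendritic cell markers 3 were found there, Cd68 at 570, H2-Aa at 151 and C1qb at 15 counts. Those 13 summed to 20.3 CPM, with Lyz2 at 0. That myeloid list summed to 38386 to 56252 CPM in TetLowReg 7 and 8 and TetLowProg 12, and to 0.119 to 1544 CPM in the rest. Most of the reads in the 3 high libraries were on Cd74 (1475807, 562795 and 1627251 counts) and H2-Aa (155460, 46134 and 125217). Lyz2 had 299515, 19392 and 18079 counts there, Csf1r 9, 8 and 0 and Adgre1 214, 0 and 0. The sum thus rests on few genes of the list and does not give a share of myeloid cells. Erythroid markers summed to 31.2 to 69.6 CPM in the same 3 libraries and to at most 0.0454 CPM elsewhere, neutrophil markers to at most 147 CPM, in TetLowReg 7, and markers of the tumor and its stroma to at most 579 CPM, in TetLowProg 9. Without the 3 libraries with B cell markers, which leaves TetLowReg 6 alone in its group and assumes that it varies as the other groups do, the median over the 9 genes other than Nfatc2 in TetLowReg against TetHighProg went from 3.60 to -0.46, while that over all genes went from 3.52 to 0.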

How the data were processed

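Full-length cDNA was made from sorted cells with Smart-seq2, which amplifies by PCR and adds no molecular identifiers, and tagmented into libraries. The authors deposited raw read counts per gene, without normalization, for each library. The submitters' processing notes name STAR 2.7.6a, featureCounts and the build GRCm39, the tables have the layout STAR writes, and which annotation release was used is not given in the sources used here. Lines of reads not assigned to a gene were left out. Of the reads counted by strand, 50.2% to 50.8% fell on one strand, so the unstranded counts were used. GENCODE M39 gave names and positions for 28645 of 32976 genes.

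The test was edgeR 4.0.16 (two-sided quasi-likelihood, TMM, default filter, prior count 2) in R 4.3.3, with all 3 groups in 1 model, and checked with DESeq2 1.42.0 and limma 3.58.1. All 3 were also run on simulated data, and how many changed genes each recovered is not reported here. The common dispersion fitted by edgeR, its measure of the spread between libraries, was 8.12. TMM factors ran from 0.600 to 1.82. The quasi-likelihood test gives no SE of its own. Each SE printed for edgeR is the size of the log2 fold change divided by the square root of the test's F value. CPM is reads per 1000000 gene counts, and genes with at least 10 counts in a library were taken as found there. A group at 0 was given a limit of 3 counts over the group, and 95% counting intervals of pooled ratios cover counting error only. The study took the cells from 3 regressing and 3 progressing tumors, so libraries of TetHighProg and TetLowProg may share tumors. The labels do not link their libraries to tumors, and the fits treat them as independent. P-values measure only the spread between these libraries, which may be technical. Alternatives were the filter, library size in place of TMM, the other tests, fits on the 2 groups compared, the detection minimum, a total without mitochondrially encoded genes and each library left out in turn. The 10 genes and all lists were chosen with earlier results of these data known. From each pathway list the 3 genes found in most libraries were named, with ties broken by mean CPM, except 1 that is not reported here, and any others named were chosen after their values were seen. For the most widely found gene of each family, the 3 most correlated genes were named. Of 18 immediate early genes, 17 were matched by name. Analyses and figures used Python 3.11.15, NumPy 2.4.6, pandas 2.3.3, SciPy 1.17.1 and matplotlib 3.10.9.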

Additional observations from a re-analysis of the deposited data

How the results depend on the processing

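With edgeR 0 of the 10 genes were called under every filter, scaling and left-out library tried, each of which tested 9 or 10 of them. The 2-group fits called 0 as well but tested only 4 (Nfkb1, Rel, Junb and Fos) in each comparison with TetHighProg, and 9 in the last, while the number of genes called over the table and the fitted directions depended on the setting. In TetLowReg against TetHighProg the genes called were 1841 with DESeq2 at default size factors, 1057 with poscounts size factors, 1131 on the 2 groups alone and 2411 with limma-voom, against 0, with 2, 1, 1 and 5 of the 10 genes among them, and edgeR on the 2 groups called 2. In TetLowProg against TetHighProg the same fits called 2370, 932, 1987 and 2901 genes, with 2, 1, 1 and 5 of the 10, edgeR on the 2 groups called 1 and edgeR with library size 1. In TetLowProg against TetLowReg they called 83, 29, 11 and 0, and edgeR on the 2 groups 1, with none of the 10. The median log2 fold change over the 9 genes other than Nfatc2 in the first comparison was 8.06 with default DESeq2 and 7.90 with limma-voom, and in the second 10.56 with default DESeq2.

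Leaving out each library in turn, edgeR called 0 to 4 genes in the first comparison, 0 in the second and 0 to 2 in the last. The median over the same 9 genes then ranged from 2.78 to 7.25, from 1.53 to 8.44 and from -1.55 to 3.60, the first upper value without TetHighProg 5 and the last 2 lower values without TetLowProg 9. The mean share of gene counts in TetLowProg went from 0.292% to 0.0649% without TetLowProg 9. The next settings were chosen after seeing the data. Without the 4 libraries with fewest genes found edgeR called 3 genes in each comparison with TetHighProg, a setting that leaves TetHighProg 5 alone in its group and assumes that it varies as the other groups do. Without the 3 libraries with B cell markers the medians were -0.46 and 9.12 in the first and last comparisons.

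Of single-gene values, 20 of 157 in the first comparison, 8 of 157 in the second and 10 of 162 in the last changed sign. In the first, Nfkb1 went from 0.15 to -0.0786 without a filter, -0.55 with library size, -0.0598, -0.67 and -0.32 with the 3 DESeq2 fits, -0.92 without the sparse libraries, -9.49 without those with B cell markers, and with 1 library left out lay between -0.43 and 9.52. Without the libraries with B cell markers Rela was at -0.64 and Jun at -0.46. Junb was at 4.36 and Fos at 9.32 with limma-voom, and with 1 library left out Junb lay between -4.37 and 5.60 and Fos between -1.20 and 8.88. In the second, Nfkb1 was at 0.42 and 0.0308 with DESeq2 at default size factors and on the 2 groups, 7.04 with limma-voom and between -4.24 and 8.13 with 1 library left out. Rel was at -1.64 with poscounts, between -1.80 and 2.05 with 1 library left out and -1.91 without the libraries with B cell markers, and Junb between -1.45 and 12.89 with 1 library left out. In the last, the lowest values with 1 library left out, all without TetLowProg 9, and the highest were -1.68 and 7.20 for Nfatc1, -5.02 and 3.60 for Rela, -1.09 and 11.88 for Junb and -1.27 and 7.07 for Fosb. Nfatc3 was at 1.62 and Rela at -2.08 with limma-voom, Rela at -0.81 with poscounts, and Nfkb1 at 0.00065 with library size, 0.48 with default DESeq2 and 9.21 without the libraries with B cell markers. The cause was not tested. No paired analysis was possible because the groups share no replicate numbers. PCR copies are counted as reads, so depth does not give the number of molecules.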
